A study of Mus musculus with 5 samples.

Results

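Pax7, Myf5, Myod1 and Myog are the 4 transcription factors whose levels are most often used to stage the muscle lineage, and their expression was followed here through regeneration of the mouse tibialis anterior, a muscle of the lower leg. The 4 genes were chosen by name, out of 18132 genes listed in any of the 4 matrices of the series, and all 4 were found. The cells came from C57Bl/6 mice and were sorted for viability after enzymatic digestion of the muscle. Notexin, a snake venom toxin that destroys myofibres, was used to injure the muscle. The groups were no injury (day 0, 2 sequencing runs, female, 4 months of age), day 2 after notexin (1 library, female, 7 months), day 5 (1 library, female, 4 months) and day 7 (1 library, male, 4 months). The day 0 runs share 1 matrix, so each day is 1 sample, no difference between days has a replicate check, and day cannot be told apart from library, nor from age at day 2 or sex at day 7.

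Pax7 is a paired-box and homeodomain factor that marks satellite cells, the resident stem cells of skeletal muscle, also called MuSCs. Myf5, Myod1 and Myog are basic helix-loop-helix factors that bind E-boxes together with ubiquitous E proteins. Myf5 and Myod1 mark commitment and proliferating myoblasts, whereas Myog (myogenin) comes on as myoblasts leave the cell cycle and prepare to fuse. In injured muscle, satellite cells are known to pass through these stages before they form new fibres or return to quiescence.

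The 4 genes lie apart in the genome. In GENCODE vM21 on GRCm38, the build also called mm10, Pax7 lies on chromosome 4 from 139737062 to 139833528 on the minus strand, and Myf5 on chromosome 10 from 107482908 to 107486134 on the minus strand. Myod1 lies on chromosome 7 from 46376474 to 46379099 on the plus strand, and Myog on chromosome 1 from 134289989 to 134292548 on the plus strand. The 250 bases before the RefSeq start (GRCm38.p6) are shown for Myog and Myf5. At day 7, as described below, Myog was detected apart from Myf5 and together with Myod1, a factor that binds E-boxes. Whether E-boxes have a part in these patterns was not tested. The regions are chr1:134289754-134290003 (plus strand) for Myog and chr10:107486135-107486384 (minus strand) for Myf5. They are written 5′ to 3′ on the gene's strand, and capitals mark every E-box of the form CANNTG, a pattern that reads the same on both strands.
Myog: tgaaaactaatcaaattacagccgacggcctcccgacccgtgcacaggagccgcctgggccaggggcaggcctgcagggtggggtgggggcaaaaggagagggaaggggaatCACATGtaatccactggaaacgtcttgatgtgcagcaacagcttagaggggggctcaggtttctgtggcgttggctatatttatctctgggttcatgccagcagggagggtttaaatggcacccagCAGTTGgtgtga
Myf5: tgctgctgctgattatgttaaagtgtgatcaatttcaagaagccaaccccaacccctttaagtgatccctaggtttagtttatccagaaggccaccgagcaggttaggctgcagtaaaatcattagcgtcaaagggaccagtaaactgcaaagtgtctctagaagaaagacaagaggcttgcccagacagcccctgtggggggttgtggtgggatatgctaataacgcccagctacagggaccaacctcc
The Myog window held 2 E-boxes, CACATG from 138 to 133 bases before the start and CAGTTG from 12 to 7 bases before it; the CAGTTG lies just inside the gene as GENCODE draws it. The Myf5 window held none, which says only that these letters are not in it. The RefSeq window of Pax7, chr4:139832969-139833218, held none either and lies inside the GENCODE gene, so it is not shown. Of 27025 gene windows of the same length, 66.0% held a CANNTG and 11.1% held CAGTTG on either strand. Among the genes of a muscle differentiation list used below, 11 of 23 windows held CAGCTG, an E-box often bound by Myod1 and Myog, against 12.8% of all windows and 5.88% to 33.3% of the windows in the other 5 lists.

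The labels of cell types are the authors' own. The label "MuSCs and progenitors" was given to 58 of 4903 labelled cells at day 2 (1.18%), to 40 of 2164 at day 5 (1.85%) and to 396 of 5680 at day 7 (6.97%), and to none of the 5176 labelled cells at day 0. Their median depth was 34387 unique molecular identifiers (UMIs, counted molecules) per cell at day 2, 2524.5 at day 5 and 5881 at day 7, against medians of 9683, 2018 and 5991 over all labelled cells of those days. Of the day 2 cells with this label, 37 lay above the 95th percentile of UMIs of their day. A list of 9 satellite cell markers that holds none of the 4 factors, and whose genes are all on the satellite cell list used below, was set against the label. Its summed level was 1224 UMIs per 1000000 (CPM) at day 2, 1984 at day 5 and 1504 at day 7. Chodl and Chrdl2, both satellite cell markers, were at 0 at day 2. Calcr, also on the list, had no row at day 2 and Chrdl2 none at day 5, so those sums cover 8 genes. A single gene of the list, Des, gave 576 CPM of the day 2 sum and 236 CPM of the day 5 sum. At day 7 some cells with the label were also rich in myeloid RNA. In 44 of the 396 cells 7 myeloid markers, among them the macrophage genes Lyz2 and C1qa, together exceeded 5000 CPM, a limit chosen after the values were seen. Barcodes shared between pairs of matrices numbered 9 to 40.

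All 4 factors were at their highest under this label, and the order of the days differed between them. The level of a gene was its summed UMIs per 1000000 UMIs of the summed cells (CPM), with an exact 95% Poisson interval. Every interval and limit here covers counting error only. A sum over cells does not separate fewer cells with a gene from less RNA per cell; the counts per cell are given further on.

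Pax7 stood at 13.8 CPM at day 2 (24 UMIs, interval 8.83 to 20.5), 189 CPM at day 5 (24 UMIs, 121 to 281) and 82.5 CPM at day 7 (231 UMIs, 72.2 to 93.8). Myf5 followed the same order, with 21.2 CPM at day 2 (37 UMIs, 15.0 to 29.3), 299 CPM at day 5 (38 UMIs, 212 to 411) and 157 CPM at day 7 (440 UMIs, 143 to 172). For both genes the day 2 interval lay below those of days 5 and 7, and the day 5 interval lay above that of day 7. The log2 ratio of day 7 over day 5 for Pax7 was -1.20, but -0.24 (-1.15 to 0.84) without cells that held Ptprc, Pdgfra or Pecam1, the genes of other cell types described below, and -0.75 (-1.85 to 0.54) with every cell thinned to 1000 UMIs. For Myf5 it was -0.97 (-1.49 to -0.40) and -0.60 (-1.52 to 0.47) under the same limits, so the order of days 5 and 7 was not detectable for either gene after thinning. The log2 ratio of day 5 over day 2 was 3.78 for Pax7 (interval 2.90 to 4.66) and 3.82 for Myf5 (3.12 to 4.51). Without cells above the 95th percentile of UMIs, which left 21 day 2 cells, the Pax7 ratio was 2.40.

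Myod1 ran in the other direction. It stood at 338 CPM at day 2 (588 UMIs, 311 to 366), 31.5 CPM at day 5 (4 UMIs, 8.58 to 80.6) and 157 CPM at day 7 (441 UMIs, 143 to 173), and these intervals did not overlap. Its log2 ratio was -3.42 for day 5 over day 2 (-5.30 to -2.06) and -1.10 for day 7 over day 2 (-1.28 to -0.92). With every cell thinned to 1000 UMIs those ratios were -1.20 and -0.21. After this single random draw 10 of 58 cells at day 2 and 3 of 40 at day 5 held Myod1, so the -1.20 rests on few cells.

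Myog was the most sharply divided between days. It stood at 395 CPM at day 2 (689 UMIs, 367 to 426) and 826 CPM at day 7 (2313 UMIs, 792 to 860), and no Myog UMI was found among the 127030 UMIs of the day 5 cells, which allows up to 23.6 CPM. With a count of 3 set in place of 0, the bound was 16.7-fold lower at day 5 than at day 2. For day 7 over day 5 it was 35.0-fold higher. These bounds count UMIs as if each were drawn alone and leave out the sampling of cells. At day 7, 47 cells held 95.3% of the Myog UMIs. Day 5 had 40 cells, and 0 of 40 allows up to 7.50% of cells with Myog. The folds could therefore be smaller than these bounds. The log2 ratio of day 7 over day 2 was 1.06 (0.94 to 1.19), but it depended on few day 2 cells and on the scale. It was 1.59 without the day 2 cell that held 222 of the 689 UMIs, 0.31 without cells above the 95th percentile of UMIs, and the mean of the authors' natural log normalized values differed by -0.078 between day 7 and day 2.

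**Figure D1:**
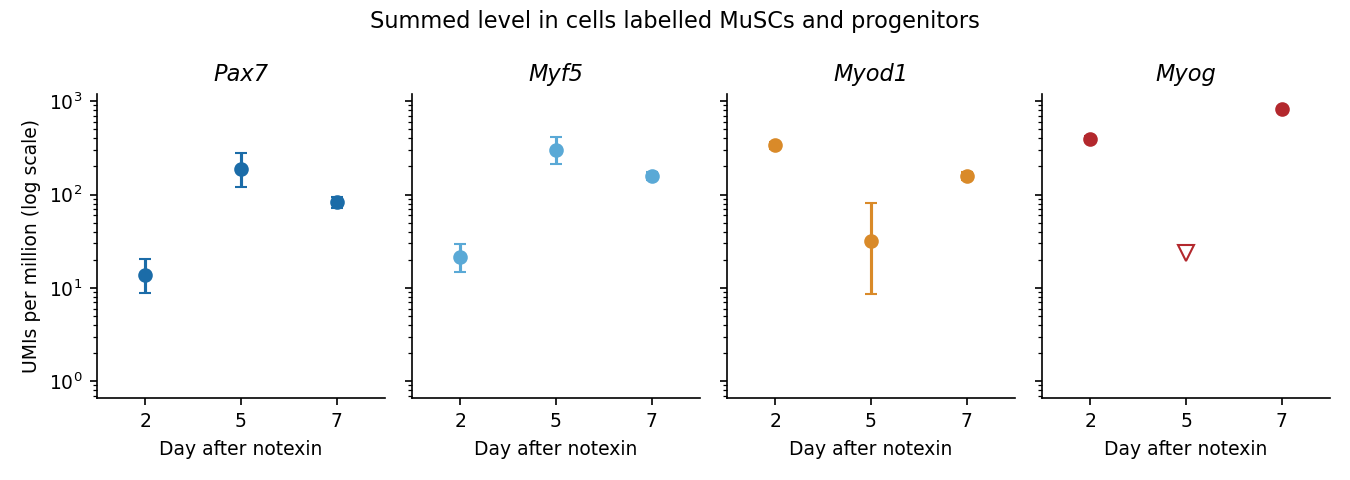
Summed level of each factor in cells labelled MuSCs and progenitors at days 2, 5 and 7 after notexin, in CPM on a log axis, with exact 95% Poisson intervals. The open triangle is the limit of 23.6 CPM that a count of 0 allows for Myog at day 5; Pax7 and Myf5 are highest at day 5, Myod1 at day 2 and Myog at day 7.

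Other labels held little of the 4 factors. Over 31 groups of label and day, this label's 3 day groups took the first 3 ranks for Pax7 and for Myf5, with no other group above 7.03 CPM and 3.75 CPM. For Pax7 the day 2 interval of this label overlapped the next in rank, smooth muscle cells at day 0 with 2 UMIs. For Myod1, the groups after days 2 and 7 of this label were mature skeletal muscle at day 5 (45.8 CPM, 7 UMIs), a glial label at day 0 (38.6 CPM, 12 UMIs) and this label at day 5 (31.5 CPM), with overlapping intervals. For Myog, measured in 24 groups, days 7 and 2 of this label ranked first and second, followed by mature skeletal muscle at day 5 (26.2 CPM, 4 UMIs). Day 7 of this label alone held 70.1% of all Myog UMIs in labelled cells, and day 2 held 20.9%.

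A low level of Myog UMIs lay in cells that should lack it. At day 7 the macrophage labels held a Myog UMI in 101 of 2353 cells (4.29%), at a median depth of 6138 UMIs, and in 94 of those the count was 1. Of the UMIs of the 4 factors in those macrophages, Myog made up 70.1%, Myod1 15.2%, Pax7 7.93% and Myf5 6.71%, and in MuSCs and progenitors of that day the same shares were 67.5%, 12.9%, 6.74% and 12.8%. Day 7 shares of cells below are therefore set against 0.425% for Pax7, 0.425% for Myf5, 0.850% for Myod1 and 4.29% for Myog in day 7 macrophages. In the day 2 macrophage label the shares were 0.549%, 0%, 0.183% and 1.83%, at a median of 7562 UMIs. In the day 5 macrophage labels they were 0% for Pax7, Myf5 and Myod1 and 0.476% for Myog, at 1747 UMIs. The day 2 MuSCs and progenitors were far deeper (34387 UMIs), so their background is not matched.

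Counts per cell separated the 4 factors further. Pax7 was a low-count gene at every day, with 1 UMI in the median positive cell and no cell above 8. It was detected in 15 of 58 cells at day 2 (25.9%), 16 of 40 at day 5 (40%) and 145 of 396 at day 7 (36.6%). Myf5 was detected in 19 of 58 cells (32.8%), 20 of 40 (50%) and 185 of 396 (46.7%) on the same days, with at most 14 UMIs in a cell. Day 2 cells were the deepest. At 1000 UMIs per cell, Pax7 was found in 1 of 58 cells at day 2, 7 of 40 at day 5 and 43 of 396 at day 7.

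Myod1 was nearly universal at day 2 and rare at day 5. It was found in 52 of 58 cells at day 2 (89.7%, Clopper-Pearson 95% interval 78.8% to 96.1%), 3 of 40 at day 5 (7.50%, 1.57% to 20.4%) and 129 of 396 at day 7 (32.6%, 28.0% to 37.4%). At 1000 UMIs per cell the shares were 17.2%, 7.50% and 11.9%, and the intervals of days 2 and 5 then overlapped.

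Myog was concentrated in few cells. It was found in 25 of 58 cells at day 2 (43.1%), in 0 of 40 at day 5, which allows up to 7.50%, and in 85 of 396 at day 7 (21.5%). At day 7, 47 cells with 10 or more Myog UMIs held 95.3% of the gene's UMIs, with a maximum of 114 in a cell, and at day 2, 10 such cells held 92.9%. The single-count cells among them, 7 at day 2 and 19 at day 7, cannot be told apart from the single UMIs seen in macrophages.

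**Figure D2:**
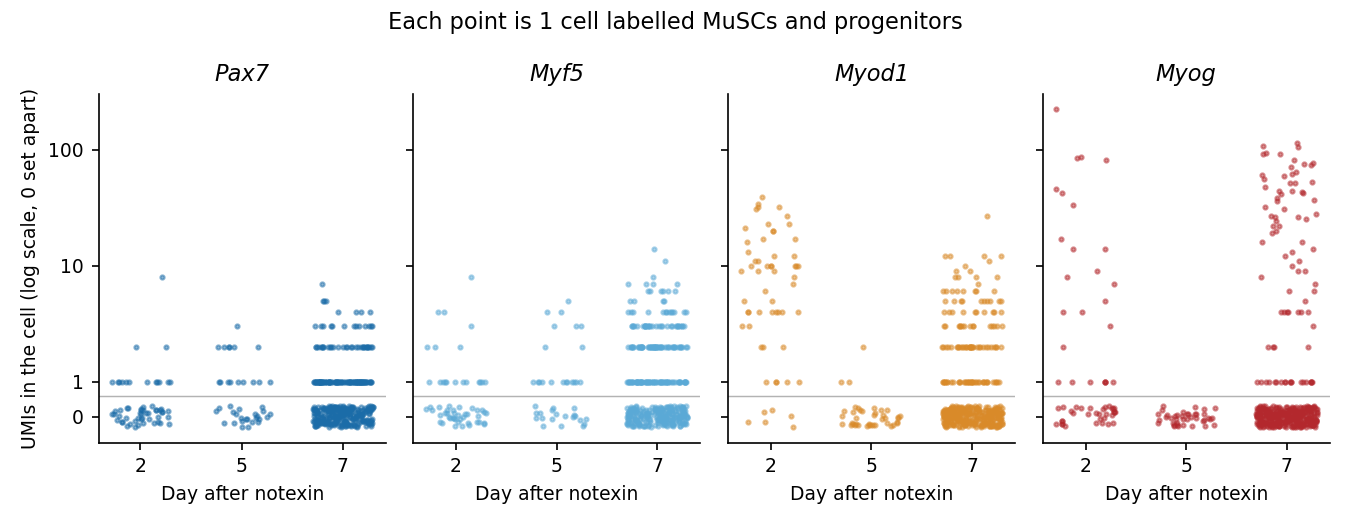
UMIs of each factor in every cell labelled MuSCs and progenitors at days 2, 5 and 7, on a log axis with cells at 0 set apart below the grey line; each point is 1 cell. Myog shows cells with 10 or more UMIs at days 2 and 7 and none at day 5, whereas Pax7 stays at 8 UMIs or fewer.

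The combinations of factors detected in a cell were counted at each day, at the unequal depths given above and without matching them. At day 2 Myod1 was found in 52 of 58 cells, often with other factors. Of the 58, 13 held Myod1 alone and 13 Myod1 with Myog. Myod1 with Myf5 was held by 5 cells, with Myf5 and Myog by 7, with Pax7 by 6 and with Pax7 and Myog by 4. A further 3 cells held Myod1 with Pax7 and Myf5, and 3 cells held no factor. At day 5 Myod1 and Myog were nearly absent, and 11 of 40 cells held Myf5 alone, 8 Pax7 alone and 8 both. At day 7 the 3 largest groups with a factor were Pax7 with Myf5 (79 of 396), Myf5 alone (56) and Myod1 with Myog (53). All 4 factors were seen together in 5 cells at day 7 and 1 cell at day 2.

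At day 7 Myog was detected together with Myod1 and apart from Pax7 and Myf5. Myod1 was found in 68 of 85 cells with Myog (80.0%, 69.9% to 87.9%), against 61 of 311 cells without Myog (19.6%, 15.3% to 24.5%). Pax7 was found in 14 of 85 cells with Myog (16.5%, 9.31% to 26.1%), against 131 of 311 without (42.1%, 36.6% to 47.8%). Myf5 was found in 18 of 85 cells with Myog (21.2%), against 167 of 311 without (53.7%). None of these pairs of intervals overlapped, and cells with Myog were somewhat deeper, with a median of 6775 UMIs against 5590. At 1000 UMIs per cell the difference was 34.4 percentage points for Myod1, -8.96 for Pax7 and -13.1 for Myf5. The Pax7 intervals then overlapped, at 2 of 61 cells with Myog (3.28%, 0.400% to 11.3%) and 41 of 335 without (12.2%, 8.93% to 16.2%), and they also overlapped when a gene was counted from 2 UMIs. Myod1 was found in 36 of 145 cells with Pax7 (24.8%, 18.0% to 32.7%) and 93 of 251 without (37.1%, 31.1% to 43.4%), intervals that overlap.

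Pax7 and Myf5 went together at day 7. Myf5 was found in 104 of 145 cells with Pax7 (71.7%, 63.7% to 78.9%), against 81 of 251 cells without Pax7 (32.3%, 26.5% to 38.4%). At day 5 Myf5 was found in 8 of 16 cells with Pax7 and in 12 of 24 without, 50% each. At day 2 the values were 5 of 15 cells with Pax7 (33.3%) and 14 of 43 without (32.6%). Whether days differ in this was not tested, and the intervals at days 2 and 5 are wide.

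At day 2 every cell with Myog also held Myod1, 25 of 25 cells, against 27 of 33 without Myog (81.8%). Pax7 was found in 5 of 25 cells with Myog (20%) and in 10 of 33 without (30.3%), and Myf5 in 8 of 25 (32.0%) and 11 of 33 (33.3%). The intervals overlapped for all 3 factors, so no separation of Pax7 or Myf5 from Myog was detectable at day 2 with this number of cells.

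The separation of Pax7 and Myf5 from Myog at day 7 was seen in the cells with most Myog. The bins of 0, 1 to 9 and 10 or more Myog UMIs were chosen after the values were seen and held 311, 38 and 47 cells. Pax7 was found in 42.1%, 31.6% and 4.26% of the cells in these bins, and Myf5 in 53.7%, 39.5% and 6.38%. The intervals of the bins of 0 and 1 to 9 overlapped for Pax7 (36.6% to 47.8% and 17.5% to 48.7%). They also overlapped for Myf5 (48.0% to 59.3% and 24.0% to 56.6%). Only the bin of 10 or more lay apart for these genes, and 19 of the 38 cells held a single Myog UMI. Myod1 was found in 19.6%, 63.2% and 93.6%. The cells with 10 or more Myog UMIs thus held almost no Pax7 or Myf5, with 4 UMIs of each in 47 cells. Over the same bins Myod1 stood at 65.2, 303 and 600 CPM. Summed differentiation genes stood at 1351, 2407 and 6063 CPM, fusion and cell cycle exit genes at 1536, 2883 and 13727 CPM, and cell cycle genes at 3828, 3300 and 1358 CPM.

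**Figure D3:**
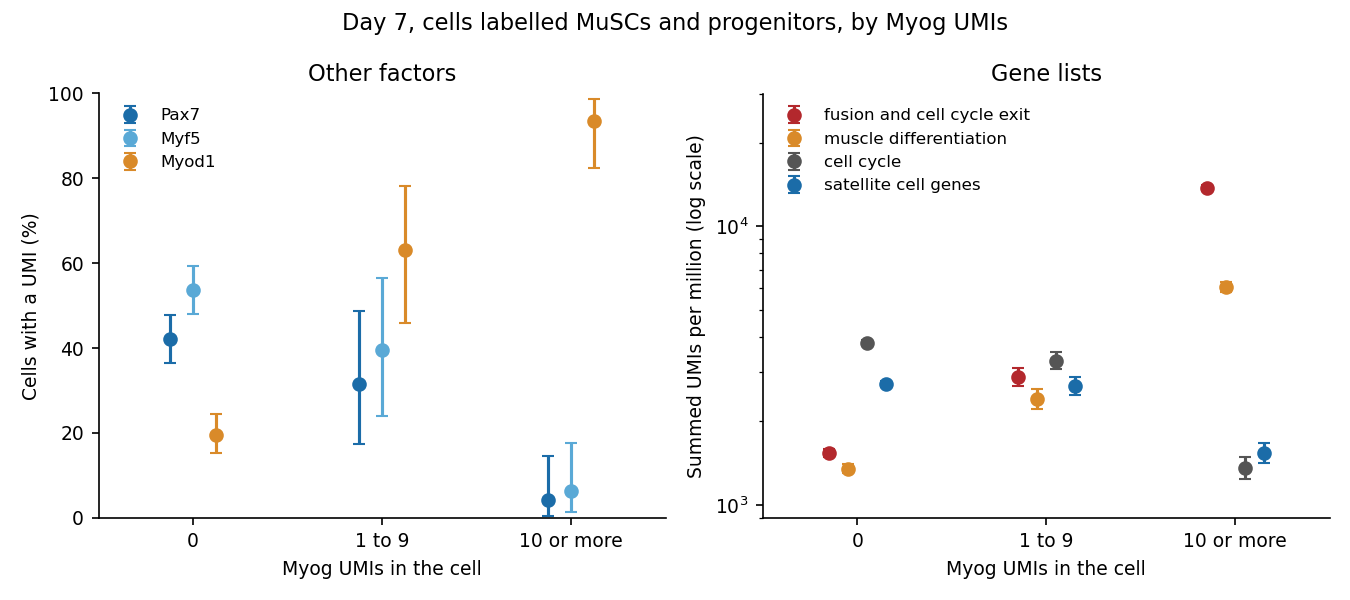
Day 7 cells labelled MuSCs and progenitors by their Myog UMIs. Left, the percent of cells with a UMI of Pax7, Myf5 and Myod1 with Clopper-Pearson 95% intervals; right, summed CPM of 4 gene lists on a log axis with Poisson intervals. From 0 to 10 or more Myog UMIs, Pax7 goes down to 4.26% of cells and Myod1 up to 93.6%.

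Genes of muscle differentiation and fusion were higher in cells with Myog at day 7. A list gene was counted as measured with at least 20 UMIs over both sides and as higher or lower at a 2-fold ratio, and Myog itself was left out. Of 20 measured differentiation genes, 12 were higher and 0 lower, where 4.98% of all 8878 measured genes were higher. The list's median log2 ratio was 1.44, against -0.09 over all genes. Actc1, the cardiac actin of developing muscle, stood at 1046 CPM in cells with Myog and 5.51 CPM in cells without (653 and 12 UMIs, log2 ratio 7.57, 6.75 to 8.53). Tnnt2, an early troponin T, stood at 476 CPM in cells with Myog and 3.22 CPM in cells without (297 and 7 UMIs, log2 ratio 7.21).

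Of 10 measured genes of fusion and cell cycle exit, 5 were higher and 0 lower, where 4.98% of all measured genes were higher. The 2 largest ratios belonged to the fusion genes Tmem8c, known as myomaker, and Gm7325, known as myomixer. Tmem8c stood at 293 CPM in cells with Myog and 0.919 CPM in cells without (183 and 2 UMIs, log2 ratio 8.32, 6.44 to 11.4). Gm7325 stood at 320 CPM in cells with Myog and 4.59 CPM in cells without (200 and 10 UMIs, log2 ratio 6.12). Most of the list's UMIs came from Cdkn1c, the cell cycle inhibitor p57, which is named here after its values were seen: 6975 CPM in cells with Myog and 538 CPM in cells without (4356 and 1171 UMIs, log2 ratio 3.70).

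Satellite cell genes went the other way in cells with Myog. Of 21 measured, 0 were higher and 9 lower, where 16.3% of all measured genes were lower. Chodl, a membrane lectin enriched in quiescent satellite cells, stood at 60.8 CPM in cells with Myog and 271 CPM in cells without (log2 ratio -2.15, -2.67 to -1.68). Egfr, a growth factor receptor, stood at 8.01 CPM in cells with Myog and 27.6 CPM in cells without (log2 ratio -1.78). Of 20 regulators and cofactors of the family, 5 were higher and 3 lower, where 4.98% of all measured genes were higher and 16.3% lower. The lower count was thus near that of all genes, and was 1 with the scaling without mitochondrial and ribosomal protein genes. Rb1, the retinoblastoma cell cycle brake, had a log2 ratio of 1.92 and Hes6, a Notch pathway antagonist, 1.27. The repressors Bhlhe41 and Msc had -1.40 and -1.07.

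Of 20 cell cycle genes, 0 were higher and 6 lower in cells with Myog, where 16.3% of all measured genes were lower. Tyms, the thymidylate synthase, had a log2 ratio of -1.35 and Mcm5, of the replicative helicase, -1.27. The myeloid markers moved in the same direction. All 7 were lower in cells with Myog, with a summed level of 1380 CPM in cells with Myog and 6358 CPM in cells without, and the FAP markers were at 1582 and 3299 CPM. Acta2, listed as a smooth muscle marker and also known from early differentiating muscle, stood at 2498 CPM in cells with Myog and 479 CPM in cells without, while Rgs5, a pericyte marker, stood at 6.40 and 42.3 CPM; both are named after their values were seen. Of the 44 cells with high myeloid markers, 2 held Myog and 42 did not. Without cells that held Ptprc, Pdgfra or Pecam1 (pan-leukocyte, fibro-adipogenic and endothelial genes), which left 317 cells, the lower cell cycle genes numbered 1. The higher differentiation genes then numbered 11, the higher fusion and exit genes 5 and the lower satellite cell genes 12. Among cells with at least 1 of the 4 factors these counts were 3, 11, 5 and 10.

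At day 2 differentiation genes were again higher in cells with Myog, and satellite cell genes did not pass 2-fold. Of 21 differentiation genes 18 were higher and 0 lower in cells with Myog, where 2.73% of all measured genes were higher, with Myh3, the embryonic myosin heavy chain, at 65.5 CPM in cells with Myog and 1.02 CPM in cells without (50 and 1 UMIs, log2 ratio 6.00). Of 10 fusion and exit genes 5 were higher, with Gm7325 at 152 and 3.07 CPM and Cdkn1c at 329 and 33.7 CPM. Of 16 satellite cell genes and 20 cell cycle genes, 0 passed 2-fold in either direction, where 3.45% of all measured genes were lower. Without cells that held Ptprc, Pdgfra or Pecam1, which left 28 day 2 cells, 4 of each list were lower. Of 5 measured FAP markers 4 were lower in cells with Myog at day 2 (297 CPM in cells with Myog and 726 CPM in cells without), and of 6 myeloid markers 1 was lower (1450 and 1675 CPM); their part in these counts was not tested.

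**Figure D4:**
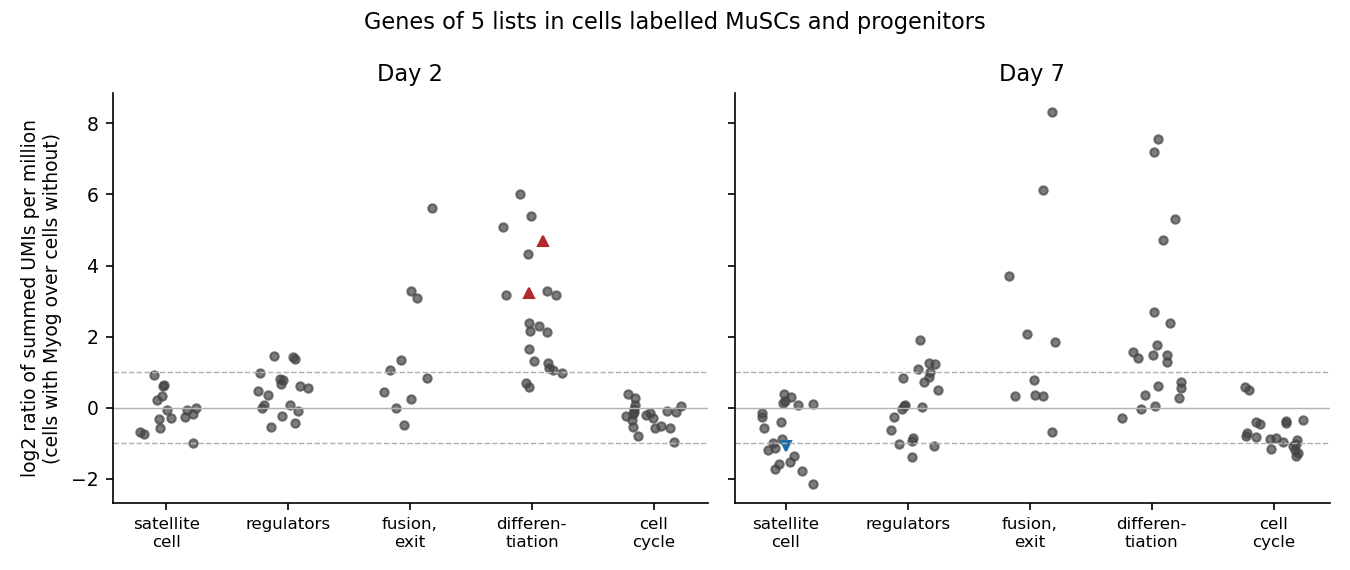
Log2 ratio of summed CPM, cells with Myog over cells without, for each measured gene of 5 lists at days 2 and 7. Dashed lines mark 2-fold, and triangles are bounds for genes at 0 on 1 side, set against 3 counts. Differentiation genes lie mostly above the upper line on both days (18 of 21 and 12 of 20), and satellite cell genes pass the lower line at day 7 (9 of 21).

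In cells with Pax7 at day 7, satellite cell genes were higher and some differentiation and fusion genes lower. Of 21 satellite cell genes 10 were higher and 1 lower in cells with Pax7, where 4.55% of all measured genes were higher and 9.19% lower. Hey1, a Notch target, stood at 68.8 CPM in cells with Pax7 and 18.3 CPM in cells without (log2 ratio 1.91, 1.29 to 2.55), and Notch3, a Notch receptor, at 158 and 48.5 CPM (log2 ratio 1.70). The exception, the syndecan Sdc3, stood at 12.7 CPM in cells with Pax7 and 47.4 CPM in cells without (log2 ratio -1.90). Of 20 differentiation genes 0 were higher and 5 lower, with Actc1 at 9.52 CPM in cells with Pax7 and 353 CPM in cells without (log2 ratio -5.21). The other 15 were within 2-fold, and the list's median log2 ratio was -0.01. Of the 251 cells without Pax7, 71 held Myog, so this contrast shares cells with the one above. Of 10 fusion and exit genes 3 were lower, among them Tmem8c at 7.41 and 95.9 CPM.

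These Pax7 counts also moved with the myeloid markers, all 7 of which were lower in cells with Pax7 (1486 CPM in cells with Pax7 and 7163 CPM in cells without). Of 7 FAP markers 4 were lower (2272 and 3244 CPM), and of 4 tenocyte markers 4 were lower (27.5 and 467 CPM). Among cells with at least 1 of the 4 factors, 6 satellite cell genes were higher, and without cells that held Ptprc, Pdgfra or Pecam1 4 were. At 1000 UMIs per cell, 2 of 13 measured were higher. Of 20 cell cycle genes 3 were lower in cells with Pax7, where 9.19% of all measured genes were, and 0 under each of those limits on cells. The lower cell cycle genes numbered 7 of 15 measured at 1000 UMIs per cell and 5 without cells above the 95th percentile of UMIs. At day 2, 2 of 16 satellite cell genes were higher and 0 lower, where 2.97% of all measured genes were higher and 3.40% lower, and with a minimum of 50 UMIs 0 were higher. At day 5, 0 of 9 passed in either direction, where 4.37% were higher and 3.97% lower.

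The day 7 cells fell into 4 exclusive classes by factor. Summed cell cycle genes stood at 1795 CPM in the 159 cells with Pax7 or Myf5 but neither Myod1 nor Myog, 4371 CPM in the 61 with Myod1 and no Myog, 2149 CPM in the 85 with Myog and 5764 CPM in the 91 with no factor. Cdkn1c stood at 826, 385, 6975 and 307 CPM and Chodl at 450, 229, 60.8 and 96.2 CPM in the same order. Summed myeloid markers stood at 1027, 3334, 1380 and 14003 CPM, and in the median cell of each class at 317, 290, 307 and 923 CPM. Summed FAP markers stood at 2193, 2494, 1584 and 5005 CPM, and summed tenocyte markers at 21.2, 42.8, 38.4 and 1023 CPM with a median cell at 0 in every class. The class with no factor held 31 of the 44 cells with high myeloid markers, and 21 of its 91 cells had no UMI of the 9 satellite cell markers, against 2 of the 305 cells with a factor.

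Between days, satellite cell genes followed Pax7 and Myf5. At day 5 over day 2, 11 of 18 measured were higher and 1 lower, where 18.8% of all measured genes were higher and 22.4% lower, with Heyl, a Notch target, at 134 and 5.74 CPM (log2 ratio 4.54). With a minimum of 50 UMIs 7 were higher. At day 7 over day 2, 14 of 21 were higher and 1 lower, where 25.8% of all measured genes were higher and 8.55% lower. Chodl was at 354 CPM at day 5 (45 UMIs) and 224 CPM at day 7 (627 UMIs), against 0 UMIs at day 2. At day 7 over day 5, 0 of 21 were higher and 6 lower, where 18.6% of all measured genes were higher and 14.2% lower; scaling without mitochondrial and ribosomal protein genes gave 12 lower. Among them was Calcr, the calcitonin receptor of quiescent satellite cells, at 7.85 and 39.4 CPM (22 and 5 UMIs).

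Cell cycle genes followed Myod1 in part. At day 5 over day 2, 15 of 20 were lower, where 22.4% of all measured genes were lower, with Rrm2, a ribonucleotide reductase subunit, at 23.6 and 329 CPM (log2 ratio -3.80). At day 7 over day 5, 10 of 20 were higher, where 18.6% of all measured genes were, and 6 with the scaling without mitochondrial and ribosomal protein genes. At day 7 over day 2, 3 of 20 were lower, where 8.55% of all measured genes were, among them Ccnd1, cyclin D1, at 66.8 and 224 CPM. Differentiation genes went both ways. At day 7 over day 2, 6 of 26 were higher and 8 lower, where 25.8% of all measured genes were higher and 8.55% lower. Only the lower share was thus above that of all genes, and the list's median log2 ratio was -0.02, against 0.26 over all genes. At day 5 over day 2, 3 of 20 were higher and 6 lower, where 18.8% of all measured genes were higher and 22.4% lower. At day 7 over day 5, 5 of 20 were higher and 1 lower, where 18.6% were higher and 14.2% lower. Genes of the dissociation stress response moved with these contrasts. Of 16 measured, 14 were higher at day 5 than at day 2, where 18.8% of all measured genes were, and 14 at day 7 than at day 2, where 25.8% were. Myeloid markers differed in direction between the contrasts, with 3 of 6 lower and 0 higher at day 5 over day 2 (205 and 1576 CPM) and 7 of 7 higher at day 7 over day 2 (5248 and 1583 CPM). FAP markers were higher at both days, 5 of 6 at day 5 over day 2 (1590 and 546 CPM) and 7 of 7 at day 7 over day 2 (2916 and 550 CPM). The depth of the cells differed between the days too. At 1000 UMIs per cell, 3 satellite cell genes were higher and 4 cell cycle genes lower at day 5 than at day 2. The part of stress, other cells and depth in these counts was not tested.

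At day 0 no cell carried the satellite cell label, and the factors were found in cells under other labels. Myog has no row in the day 0 matrix, where listed genes have a UMI in at least 3 barcodes, and it was not analysed there. Pax7 was found in 24 of 5176 labelled cells, Myf5 in 15 and Myod1 in 24. In all, 43 cells held 1 or more of the 3, 14 held 2 or more, and 6 held all 3.

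Of these 43 cells, 27 were labelled FAPs (fibro-adipogenic progenitors, the stromal cells of muscle), and they fell apart by marker. In 19 of them the 8 FAP markers summed to 4 to 22 UMIs, with a median of 10, and in the other 8 to 158 to 632 UMIs. The remaining 3489 cells with that label had a median of 328. The 19 cells each held 1 to 17 UMIs of the 9 satellite cell markers (median 12), against a median of 1 in the remaining cells of the label. They held Pax7 in 14 cells, Myf5 in 12 and Myod1 in 8, and 10 of the 19 held 2 or more. This division was made after the values were seen. Counted from the markers, another, partly shared set of 27 FAP-labelled cells had 22 or fewer FAP marker UMIs, and 19 of this set held a factor. In the set, 22 of 27 cells had 5 or more satellite cell marker UMIs, and 18 of these held a factor. In these 22 cells the markers go against the label. Above the limit, 107 of 3489 FAP-labelled cells also had 5 or more satellite cell marker UMIs.

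**Figure D5:**
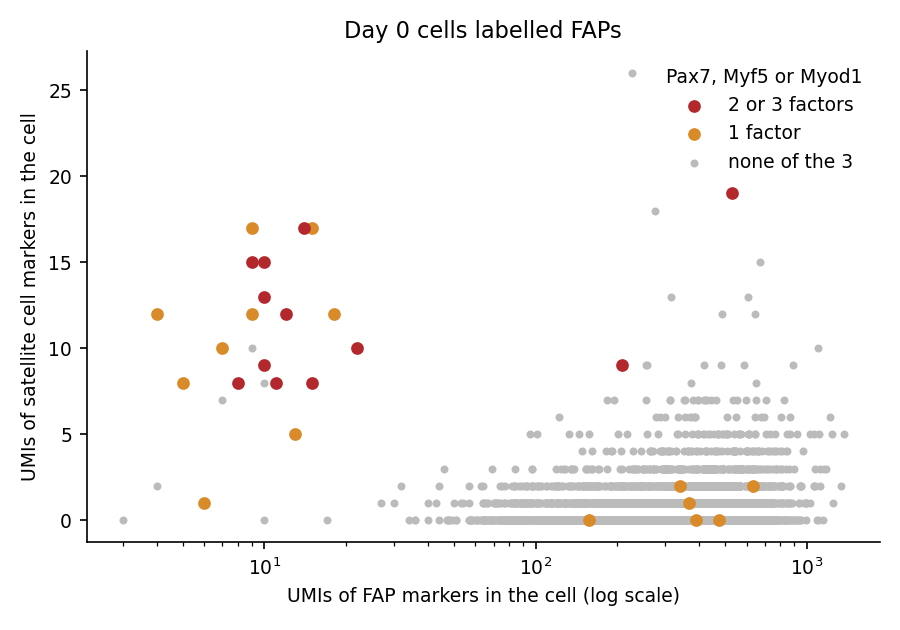
Day 0 cells labelled FAPs, by the UMIs of 8 FAP markers (horizontal, log axis) and of 9 satellite cell markers that are none of the 4 factors (vertical); each point is 1 cell, coloured by how many of Pax7, Myf5 and Myod1 it held. Cells with 2 or 3 factors lie mostly at 22 or fewer FAP marker UMIs, apart from the body of the label.

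Over all 27 FAP-labelled cells with a factor, set against the other 3489 of the label, 13 of 19 measured satellite cell genes were higher and 1 lower, where 13.5% of all measured genes were higher and 9.66% lower. Fgfr4, a growth factor receptor of muscle progenitors, stood at 270 CPM in cells with a factor and 0.370 CPM in the other cells of the label (28 and 6 UMIs, log2 ratio 9.51, 8.21 to 11.1). Chodl stood at 491 CPM in cells with a factor and 1.35 CPM in the others (51 and 22 UMIs, log2 ratio 8.50). The lower gene was Cd34, a surface sialomucin that stromal cells also carry, at 636 CPM in cells with a factor and 1329 CPM in the others (log2 ratio -1.06). Of 8 FAP markers 7 were lower, with a sum of 31869 CPM in cells with a factor and 76665 CPM in the others. Of 4 measured smooth muscle and pericyte markers 2 were higher (222 and 33.7 CPM), and of 16 dissociation stress genes 7 were higher; their part in these counts was not tested.

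Myod1 alone marked 7 of 71 cells of the glial label at day 0, and none of the 7 held Pax7 or Myf5. Those 7 cells held 261 to 3593 UMIs of 7 mature muscle markers such as Acta1 and Ckm. The 64 cells without Myod1 had a median of 1 and a range of 0 to 1434, and 10 of them held 100 or more. High mature muscle RNA was therefore not particular to the cells with Myod1. In the endothelial label 4 of 1089 cells held Myod1, of which 1 had 14 UMIs together with 8 satellite cell marker UMIs.

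The genes whose levels were most like each factor over the groups of label and day were named by Pearson's r of log2(CPM + 20), as a description, since all groups of a day share a library. Over 30 groups of at least 40 cells and 13790 genes, Pax7 and Myf5 were each other's closest gene (r = 0.990). Outside MuSCs and progenitors no group stood above 7.03 CPM for Pax7 or 3.75 CPM for Myf5. Their r therefore rests mostly on that label's groups at days 2, 5 and 7. Next to Pax7 came Pde1c (0.968), Hs6st2 (0.960), Lix1 (0.944) and Xrcc3 (0.943), and next to Myf5 came Hs6st2 (0.968), Fgfr4 (0.965), Pde1c (0.963) and Megf10 (0.956). Myod1 lay closest to Chrna1, the muscle acetylcholine receptor subunit (0.941), Pitx3 (0.906), Ankrd1 (0.902), Rbm24 (0.901) and Serinc2 (0.894), and its r with Pax7 was 0.548. Myog, over 23 groups of 3 days, lay closest to Tmem8c (0.968), Pnmal2 (0.943), Myod1 (0.902), Serinc2 (0.865) and Chrna1 (0.857), and its r with Pax7 was 0.467. With a pseudocount of 1, Pax7 and Myf5 remained in each other's closest 5 and Myod1 and Tmem8c in those of Myog, while 1 to 3 of each reported 5 were kept.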

How the data were processed

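Single-cell RNA-seq (10x droplet libraries) was made from sorted viable cells of tibialis anterior muscle. The authors deposited, per the submitters' processing notes with Cell Ranger 2, Seurat 2.3.4, R 3.6.2 and build mm10, a matrix per day of UMI counts, a matrix of normalized values on a natural log scale, and a table per cell with its label and mitochondrial fraction (at most 20.0%). The deposited normalized values match the natural log of 1 plus 10000 times a count over the cell's total. Both day 0 runs share a matrix, and the days came from the sample labels, since the deposited cell table gives day 0 throughout.

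Counts of labelled cells were summed per label and day with Python 3.11.15, numpy 2.4.6, scipy 1.17.1 and pandas 2.3.3. Levels have exact Poisson 95% intervals, shares Clopper-Pearson intervals, and ratios an exact split of the UMIs; all cover counting error only. A count of 0 was set at 3. With 1 matrix per day nothing was tested between samples, and cells were not treated as replicates. Genes with 20 UMIs over both sides were called at 2-fold. The call was checked on simulated counts that had no variation between cells, so genes held by few cells were not covered. Cells were thinned to 1000 UMIs with a fixed seed. No doublet caller was run; leaving out cells above the 95th percentile of UMIs was an alternative. Per list and comparison the 2 highest and 2 lowest called genes could be named. The members and lists were chosen with earlier results of these data known. Some alternatives, named as such, were chosen after seeing the data.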

Additional observations from a re-analysis of the deposited data

Results flagged for a closer look

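At day 2, 21 barcodes had no cell label and entered none of the comparisons, and they held all 4 factors. Pax7 was found in 5 of them (6 UMIs, 7.22 CPM), Myf5 in 7 (17 UMIs, 20.5 CPM), Myod1 in 15 (337 UMIs, 405 CPM) and Myog in 6 (415 UMIs, 499 CPM). These barcodes had a median of 51552 UMIs, with 13 above 20000, and reached 99146 UMIs, against a maximum of 55390 in labelled cells of that day. Their satellite cell markers stood at 1116 CPM, against 1224 CPM in the day 2 cells labelled MuSCs and progenitors. With these barcodes added to the labelled day 2 cells, the log2 ratios of day 7 over day 2 were 2.82 for Pax7, 2.90 for Myf5, -1.19 for Myod1 and 0.94 for Myog. The unlabelled barcode with most Myog held 295 of the 415 Myog UMIs (71.1%).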

How the results depend on the processing

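Scaling without mitochondrial and ribosomal protein genes moved none of 24 ratios between days and day 7 list counts past its limit, a minimum of 50 UMIs none of 12 day 7 list counts, and adding unlabelled barcodes (chosen after seeing the data) none of 8 ratios between days and 5 day 0 counts; list counts between days did move, with that scaling giving 12 lower satellite cell genes, 2 lower differentiation genes and 6 higher cell cycle genes at day 7 over day 5, and the minimum of 50 UMIs 7 higher satellite cell genes at day 5 over day 2 and 5 lower differentiation genes at day 7 over day 2. Thinning to 1000 UMIs gave day 5 over day 2 log2 ratios of at least 2.41 for Myf5, -1.20 for Myod1 and at most -2.97 for Myog, day 7 over day 2 ratios of at least 1.81 for Myf5, -0.21 for Myod1 and 0.48 for Myog, and at least 3.44 for Myog at day 7 over day 5. Without cells above the 95th percentile of UMIs, Pax7 stood at 2.40 (day 5 over day 2) and 1.33 (day 7 over day 2), Myod1 at -0.89 and Myog at 0.31 (day 7 over day 2). Without cells holding Ptprc, Pdgfra or Pecam1, Pax7 stood at 2.67 (day 5 over day 2) and -0.24 (day 7 over day 5), Myod1 at -0.83 and Myog at 0.79 (day 7 over day 2). The Myog difference of day 7 and day 2 turned to -0.078 in the mean of the authors' natural log values, and was 1.59 without the day 2 cell with most Myog, an alternative chosen after seeing the data; the cause was not tested.

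Thinned differences in co-detection at day 7 were 34.4 percentage points for Myod1 with Myog, -8.96 for Pax7 with Myog, -13.1 for Myf5 with Myog, 17.8 for Myf5 with Pax7 and -2.88 for Myod1 with Pax7. Counting from 2 UMIs gave -10.0 for Pax7 with Myog, and leaving out cells above the 95th percentile 45.5 for Myod1 with Myog at day 2. Thinned day 0 cells numbered 9 with Pax7, 9 with Myf5, 9 with Myod1, 18 with any and 7 with 2 or more.

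Of list counts at day 7, lower differentiation genes in cells with Myog numbered 1 with a minimum of 1 UMI and 1 thinned, and higher cell cycle genes 1 thinned. Lower cell cycle genes in cells with Myog numbered 1 without cells holding Ptprc, Pdgfra or Pecam1 and 3 among cells with a factor. In cells with Pax7, higher satellite cell genes numbered 2 thinned, 4 split at 2 UMIs, 4 without those other cells and 6 among cells with a factor; lower ones 0 thinned and 0 among cells with a factor. Lower cell cycle genes there numbered 7 thinned, 5 without cells above the 95th percentile, 0 without those other cells and 0 among cells with a factor, and higher differentiation genes 1 with a minimum of 1 UMI, 1 thinned and 1 split at 2 UMIs. The split and, for lists, the 2 choices of cells were chosen after seeing the data.

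No paired analysis was possible because each day is 1 matrix with no replicate, and for the same reason leaving out a replicate was not run. The 40 cells of day 5 and 58 of day 2 limit every share at those days.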
